A study of Mus musculus with 4 samples.

Results

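Venous endothelial cells (vECs) of the mouse thymus were chosen with a count rule from 4 single-cell RNA-seq libraries of stromal cells that lack the leukocyte antigen CD45. A cell was kept when it held more than 1000 detected genes and under 20% mitochondrial transcripts, where transcripts are counted as unique molecular identifiers (UMIs). It was endothelial when its UMIs of Pecam1, Cdh5 and Kdr summed to at least 2 and it held none of Epcam, Pdgfra or Ptprc. An endothelial cell was venous when its UMIs of Selp, Ackr1 and Vwf summed to at least 2 and exceeded both a capillary sum (Gpihbp1, Cd36 and Car4) and an arterial sum (Sema3g, Gja5, Gkn3 and Stmn2). The rule found 195 vECs among 1366 endothelial cells, 10245 kept cells and 13981 called barcodes. By the same rule 1009 endothelial cells were capillary, 71 were arterial and 91 had no class.

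All mice were untreated C57BL/6 animals aged 6 months. In the WT group (labelled mock, genotype wild type) 2 libraries were made. In the Z/Z group (labelled mutant, homozygous for the LacZ allele of Foxn1) another 2 were made. Foxn1 is a transcription factor of thymic epithelial cells (TECs), and the Z allele brings its decline in those cells forward. Each preparation pooled 10-15 thymi, which were digested with liberase and DNase, depleted of CD45+ cells on beads and sorted. The protocol gives the mice as female and the sample sheet as male: Xist was at 0 UMIs in the venous sums of all 4 libraries, and Ddx3y was found in each. Foxn1 had 0 UMIs in the 195 vECs. In cells with at least 2 UMIs of Epcam and none of the endothelial genes its levels in CPM (UMIs of the gene scaled to a fixed total per sum) were 76.3 and 68.1 for the WT libraries, against 49.6 and 65.3 for Z/Z. Nothing states that the libraries of a group came from separate pools of animals, so p-values may measure technical spread.

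Veins of the thymus, above all the postcapillary venules, are where blood-borne progenitors enter the organ and where mature thymocytes leave it. Their endothelium stores P-selectin (Selp) and von Willebrand factor (Vwf) in Weibel-Palade bodies and carries the atypical chemokine receptor Ackr1. E-selectin (Sele), the other endothelial selectin, is made anew when nuclear factor kappa B (NF-kB) is active. P-selectin on thymic portal endothelium binds PSGL-1 on incoming progenitors, and endothelial BMP4 acts on TECs during repair.

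Both endothelial selectin genes lie close together on chromosome 1. In GRCm38 Sele lies at 164048234-164057677 and Selp at 164115264-164150026, both on the plus strand, with F5, the gene of coagulation factor V, next at 164151838-164220277. F5 starts 1812 bases after the end of Selp. The bases upstream of the 2 selectin starts (RefSeq, GRCm38.p6, plus strand, 250 bases each) are shown because both genes mark these cells. They cover chr1:164047984-164048233 for Sele and chr1:164115014-164115263 for Selp. Capitals mark the match to a loose form of the NF-kB site, GGG then 5 bases of any kind then CC, searched on both strands.
Sele: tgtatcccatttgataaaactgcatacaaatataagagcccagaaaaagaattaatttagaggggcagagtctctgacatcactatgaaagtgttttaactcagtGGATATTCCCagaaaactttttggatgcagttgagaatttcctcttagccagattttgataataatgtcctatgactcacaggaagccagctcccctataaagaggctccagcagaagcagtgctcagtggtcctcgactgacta
Selp: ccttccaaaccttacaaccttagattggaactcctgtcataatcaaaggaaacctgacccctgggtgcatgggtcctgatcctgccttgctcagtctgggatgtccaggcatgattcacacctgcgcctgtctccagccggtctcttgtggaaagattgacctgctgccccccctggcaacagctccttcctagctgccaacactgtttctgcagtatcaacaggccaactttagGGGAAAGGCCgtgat
Sele held 1 match, which lies on the other strand, and Selp held 1 on the strand shown. No other motif was searched. Of 32851 upstream windows of this length, 45.8% held the motif, so a match in both is a description of the letters only.

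The values that chose the vECs are given as a description. Selp was found in 189 of the 195 cells, Vwf in 172 and Ackr1 in 147, and 136 held all 3 markers. Another 14 cells were chosen by Selp alone, 4 by Vwf alone and 0 by Ackr1 alone. Selp made up 83.3% of all marker UMIs, with a median of 53 per cell, a lower quartile of 18.5, an upper quartile of 129 and a highest value of 532. Of the UMIs of each gene in all called barcodes, vECs held 80.9% for Selp, 70.3% for Ackr1 and 57.5% for Vwf. The venous sum had a median of 65 and was over 10 in 176 cells. Just inside the threshold were 7 cells with a sum of 2 to 4. Just outside it were 3 cells with a sum of 1, and 64 cells whose venous sum of at least 2 (median 3) was not the largest and whose capillary sum had a median of 12.

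**Figure D1:**
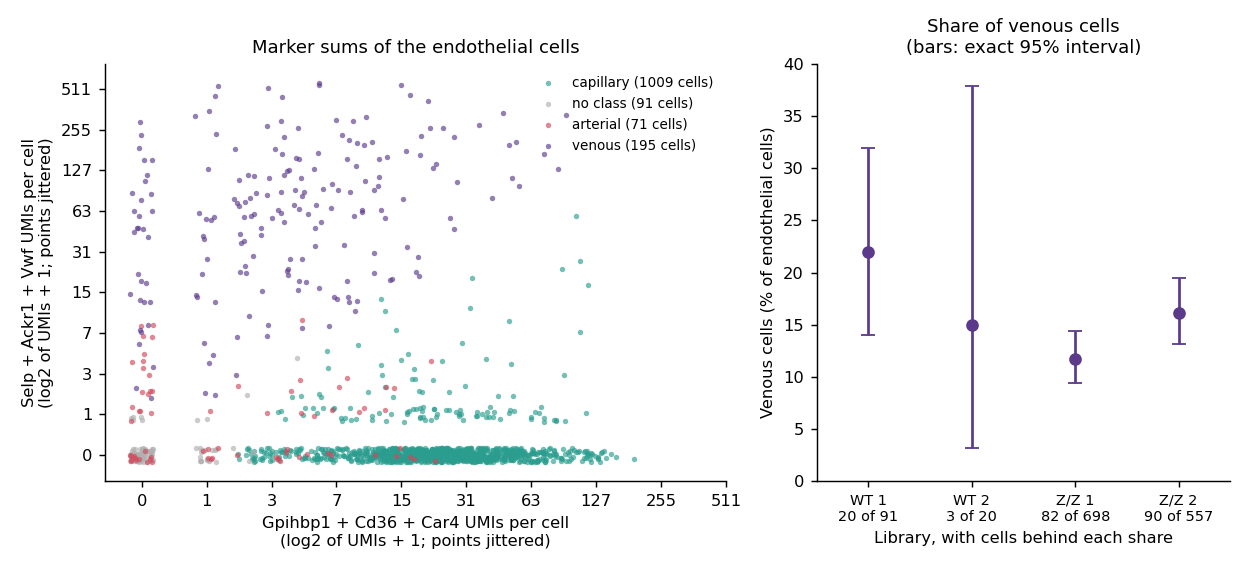
Left, each point is 1 of the 1366 endothelial cells, placed by its capillary marker UMIs (x) and venous marker UMIs (y) on log2 axes and coloured by class; the 195 vECs hold more venous than capillary marker UMIs. Right, the share of vECs among endothelial cells in each library with its exact 95% interval, which for WT 2 rests on 3 of 20 cells.

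In the order WT 1, WT 2, Z/Z 1, Z/Z 2, the libraries gave 20, 3, 82 and 90 vECs. Median UMIs per cell were 11740.5, 12379, 10732.5 and 8682, and capillary cells had a median of 5278 overall. The summed vECs held 226699, 34734, 1076903 and 1098341 UMIs, so WT 2 was by far the shallowest. Of the 90 Selp UMIs of WT 2, 91.1% came from 1 of its 3 cells. The median mitochondrial share of vECs was 3.84%, 8.54%, 2.71% and 3.03%, higher in both WT libraries. Libraries of the same genotype shared 202 (WT) and 249 (Z/Z) called barcodes against 0 to 6 across genotypes, and 6 vECs had such a barcode. No doublets were removed by the rule, and 7 vECs were among the 3.9% of cells with the highest doublet scores.

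Markers of other cells were low in vECs for most lists. Of 12 thymocyte genes 1 was at 0 and the summed level was 0 to 51.0 CPM over the libraries. Of 12 TEC genes Krt19, Psmb11 and Foxn1 were at 0 and the sum was 0 to 92.0 CPM. Of 8 platelet genes 6 were at 0, Ppbp, Gp9, Gp1bb, Gp5, Treml1 and Tubb1 (sum 0 to 12.7 CPM), and of 10 macrophage and dendritic genes 5 were (13.2 to 28.8 CPM). The lymphatic genes summed to 13.2 to 89.1 CPM over 8 genes, with Reln and Tbx1 at 0, those of B cells to 44.1 to 89.1 CPM over 6 and those of Schwann cells and mesothelium to 0 to 3.64 CPM over 7. The 10 fibroblast genes gave 28.8 to 92.6 CPM. Pericyte and smooth muscle genes summed to 238 and 86.4 CPM for the WT libraries against 584 and 512 CPM for Z/Z over 10 genes, the highest list in Z/Z. Red blood cell genes differed the other way, with 331 and 173 CPM in WT vECs and 3.71 and 2.73 CPM in Z/Z vECs, beside 21700, 23200, 195 and 286 CPM in droplets with at most 100 UMIs. Haemoglobin and ribosomal protein genes were left out of the tests below.

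Of the endothelial cells of each library, vECs were 22.0% (WT 1), 15.0% (WT 2), 11.7% (Z/Z 1) and 16.2% (Z/Z 2). The exact 95% binomial intervals, which cover counting error only, ran from 14.0% to 31.9% in WT 1, 3.21% to 37.9% in WT 2, 9.45% to 14.4% in Z/Z 1 and 13.2% to 19.5% in Z/Z 2. WT libraries averaged 18.5% ± 4.93 (SD, n = 2), Z/Z libraries averaged 14.0% ± 3.12 (SD, n = 2), and the groups overlapped. The difference of -4.54 percentage points had an exact two-sided permutation p of 0.667, where 2 libraries against 2 cannot go below 0.333. With each cell thinned to 2000 UMIs before the sums were compared, the difference was -1.37 points (exact permutation p = 1). As a share of all kept cells vECs made up 1.32% and 0.633% of the WT libraries but 1.77% and 2.49% of the Z/Z libraries, with no overlap (exact permutation p = 0.333). All endothelial cells together went the same way, from 6.00% and 4.22% to 15.1% and 15.4% of kept cells. A lower share of a cell type and a lower yield of it cannot be told apart here. Cells had been digested and sorted, so these are shares of the sorted cells.

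UMIs were then summed over the vECs of each library and compared with the capillary sums of the same library. Because the classes were cut from these same cells, the contrast is a description, and nothing is read from its count: of 5240 genes tested, 554 stood higher and 522 lower in vECs at an adjusted p under 0.05 (edgeR quasi-likelihood test with the library as a block, Benjamini-Hochberg adjustment), or 20.5% in all, 10.6% higher and 9.96% lower. The 16 genes of the rule were left out. Each list count below stands beside these shares and a median log2 difference of -0.045 over all genes tested. Levels are CPM scaled by the trimmed mean of M values (TMM) over the sums.

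Sele was furthest apart among the genes that met the naming criteria given under data processing. Its levels in the venous sums were 1280, 251, 2170 and 1550 CPM in WT 1, WT 2, Z/Z 1 and Z/Z 2, against 0, 0, 9.41 and 6.57 CPM in the capillary sums, a log2 difference of 8.03 ± 0.52 (SE). Every library had more Sele in its vECs than in its capillary cells. Of all Sele UMIs in called barcodes vECs held 48.1%. When each cell was thinned to 2000 UMIs, 65.3% of vECs held a Sele UMI, against 1.01% of capillary cells, 0.110% of Epcam+ cells and 6.74% of Pdgfra+ cells. Thinning left out 2 vECs, 21 capillary, 26 Epcam+ and 2 Pdgfra+ cells. Without it the shares were 82.6%, 2.08%, 0.380% and 13.6%, at median depths of 10407 UMIs in vECs, 5278 in capillary cells and, by library, 8743 to 20417 in Epcam+ cells. All 161 vECs with Sele also held Selp, a gene of the rule that 189 of all 195 vECs held. Beyond the selectins, the adhesion receptor gene Vcam1, the ligand of the integrin VLA-4, stood at 1400, 866, 1270 and 1340 CPM in vECs and at 271, 431, 88.0 and 86.7 CPM in capillary cells (2.84 ± 0.45). Icam1, the ligand of LFA-1, had 741, 27.9, 448 and 586 CPM in vECs and did not pass (-0.56 ± 0.43). Its sign turns when WT 2 is left out (0.03). In the list on leukocyte homing 2 of 12 genes tested stood higher and 3 lower, namely Podxl, Ly6c1 and Ly6a (median log2 difference -0.45 against -0.04 for all genes). Glycam1 and Madcam1, addressins of lymph node and gut venules, reached at most 28.5 and 1.20 CPM in vECs.

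F5 was the next. Its venous levels of 143, 419, 835 and 953 CPM stood beside 2.51, 0, 3.88 and 3.29 CPM in capillary cells (7.77 ± 0.45). F5 was found in 104 vECs. Each of them also held Selp, but so did 189 of all 195 vECs, because the rule used Selp. The UMIs of F5 came to 1.59%, 16.7%, 8.91% and 9.51% of those of Selp. Whether reads that pass the 3' end of Selp were counted to F5 was not tested. Among other genes of haemostasis F8, the factor VIII gene, stood at 462, 615, 192 and 333 CPM in vECs (3.28 ± 0.31), and Angpt2, Cd63, Rab27a, Procr, Tfpi and Ptgs1 were among the others that stood higher. Thus 8 of 16 genes tested on the Weibel-Palade and haemostasis list passed, all higher (median 0.75), where 10.6% of all genes tested were higher.

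Fgf23, a hormone of phosphate balance best known from bone, was found at 781, 224, 413 and 236 CPM in vECs and at 7.53, 0, 1.66 and 0.822 CPM in capillary cells (7.57 ± 0.42). vECs held 73.1% of all its UMIs. Few cells carried it: 55 of 195 vECs held a UMI, and the top 20 cells held 81.6% of the UMIs. Csf3, which codes for the granulocyte growth factor G-CSF, stood at 1280, 0, 1280 and 1490 CPM in vECs (4.74 ± 0.45). WT 2 held none in 3 cells, and in WT 1 only 2 of 20 cells gave 84.4% of the UMIs. Il6 was higher by a smaller margin (1.16 ± 0.42), at 371, 0, 656 and 411 CPM against 382, 163, 105 and 143 CPM in capillary cells, and in both WT libraries the order was opposite. The receptors Il1r1 (4.06 ± 0.42) and Il6ra (1.37 ± 0.34) were higher as well, and the neutrophil chemokine gene Cxcl2 was lower (-2.86 ± 0.44), so that 4 of 11 cytokine genes tested stood higher and 1 lower (median 0.39).

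The receptor RANK (Tnfrsf11a), known in the thymus from medullary TECs, was at 844, 55.9, 831 and 674 CPM in vECs and at 23.3 to 50.2 CPM in capillary cells (4.56 ± 0.41). Nfkb1 (1.34 ± 0.36) and the feedback inhibitor Tnfaip3 (1.02 ± 0.27) were higher too. All 14 genes tested on the lymphotoxin and NF-kB list had a positive difference, of which these 3 passed (median 0.43). Ltbr itself, the lymphotoxin receptor, stood at 22.8 to 55.9 CPM in vECs and at 31.8 to 44.0 CPM in capillary cells and did not pass (0.24 ± 0.32). MHC class II genes stood higher, namely H2-Aa (2.06 ± 0.30), H2-Eb1 (2.24 ± 0.32), H2-Ab1 (1.38 ± 0.30) and the invariant chain gene Cd74 (2.38 ± 0.38), with Nlrc5, an activator of MHC class I genes. Cd74 ranged from 391 to 1210 CPM in vECs and from 118 to 218 CPM in capillary cells. On that list 5 of 13 genes were higher and 0 lower.

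**Figure D2:**
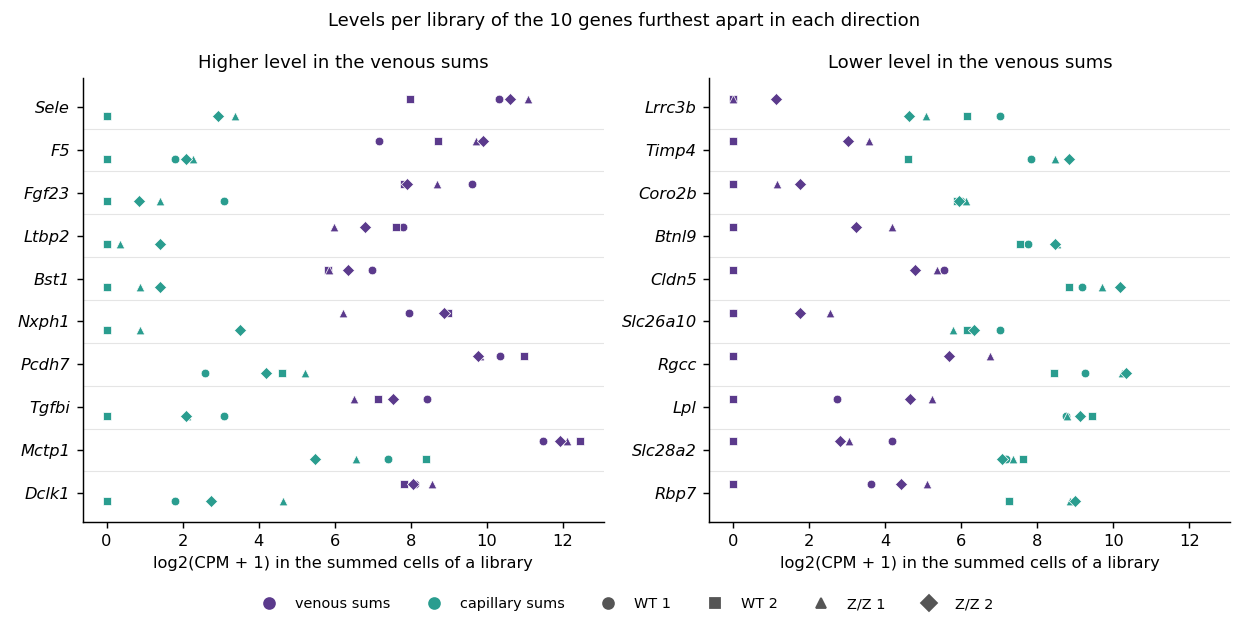
Each point is the level of a gene in the summed vECs (purple) or capillary cells (green) of 1 library, as log2(CPM + 1), with the library given by the marker shape. The 10 highest and 10 lowest log2 differences among genes that met the naming criteria are shown. They run from Sele (8.03) to Dclk1 (4.75) and from Lrrc3b (-5.75) to Rbp7 (-4.13). For each gene shown, venous and capillary points do not overlap, but the same order in every library was one of the criteria.

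The other named genes with the highest differences span matrix, adhesion and signalling. They were Ltbp2, a matrix protein related to the binders of latent TGF-beta (6.64 ± 0.45), the ectoenzyme Bst1 (5.87 ± 0.53), the neurexin ligand Nxph1 (5.80 ± 0.55), the protocadherin Pcdh7 (5.72 ± 0.44), the matrix protein Tgfbi (5.25 ± 0.36), the C2-domain membrane protein Mctp1 (4.94 ± 0.49) and the kinase Dclk1 (4.75 ± 0.36). Mctp1 was at 2860, 5620, 4430 and 3860 CPM in vECs and at 44.0 to 338 CPM in capillary cells. On the list of genes used to name venous endothelium, 13 of 19 tested stood higher and 1, the apelin receptor gene Aplnr, lower (median 2.23). Nr2f2, the transcription factor COUP-TFII that sets vein identity, had 114, 0, 161 and 259 CPM in vECs and 45.2 to 111 CPM in capillary cells (0.94 ± 0.32). It did not pass in 5 of 13 alternatives, with DESeq2 (adjusted p = 0.633), with no filter on low counts, with no library block or without either Z/Z library. Lrg1 (4.21 ± 0.37), Tll1 (4.11 ± 0.51), Bgn (2.84 ± 0.34) and Plvap, the diaphragm protein of fenestrae (2.63 ± 0.39), were among the others. The study used Plvap, with Cldn5, to mark capillary cells.

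Bmp4 was higher in vECs than in capillary cells, at 22.8, 0, 128 and 162 CPM against 10.0, 11.6, 14.4 and 21.8 CPM (2.82 ± 0.33). The gap was wide only in the Z/Z libraries, and in WT 2 the order was opposite. WT vECs held 4 UMIs of Bmp4 and Z/Z vECs 240. Before TMM scaling vECs stood at 17.6, 0, 97.5 and 123 CPM. Droplets with at most 100 UMIs held 12.8, 11.2, 24.0 and 29.0 CPM, and Pdgfra+ cells 96.0, 107, 78.8 and 80.3 CPM. At 2000 UMIs a cell, 21.8% of vECs and 2.02% of capillary cells held a Bmp4 UMI, as did 16.4% of Pdgfra+ cells and 1.49% of Epcam+ cells. Unthinned, the shares were 46.7%, 7.04%, 48.6% and 6.34%. Of all Bmp4 UMIs in called barcodes vECs held 6.15%. Kitl, the stem cell factor gene, did not pass, with 950 to 1230 CPM in vECs and 1130 to 1540 CPM in capillary cells (-0.31 ± 0.34). Il15 was higher in vECs (1.88 ± 0.31), and Bmp6, Dll4, Jag2, Cxcl12 and Angptl4 were lower, so that of 11 genes tested among thymopoietic and regenerative factors 2 stood higher and 5 lower (median -0.90). Cxcl12, which retains and guides progenitors, was at 388, 27.9, 263 and 242 CPM in vECs and at 1400 to 1940 CPM in capillary cells (-2.89 ± 0.41).

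For egress, Spns2, the exporter of sphingosine-1-phosphate, was at 160, 27.9, 103 and 92.3 CPM in vECs and at 43.1 to 81.5 CPM in capillary cells (0.98 ± 0.29), and in WT 2 the order was opposite. Plpp3, a lipid phosphatase that breaks the ligand down, was at 2090, 419, 1620 and 1470 CPM in vECs and at 454 to 993 CPM in capillary cells and did not pass. Of 4 genes tested on that list 1 passed (median 0.46), where 20.5% of all genes tested passed. Ccl19, a chemokine of progenitor entry and of egress, was at 0 to 17.1 CPM in vECs and too low to test.

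Of 12 capillary genes tested 8 were lower and 0 higher (median -2.27). Lpl, which releases fatty acids from lipoproteins, was at 5.70, 0, 36.7 and 24.0 CPM in vECs and at 429, 699, 442 and 556 CPM in capillary cells (-4.36 ± 0.38). Cldn5, the main endothelial claudin, was at 45.6, 0, 40.3 and 26.4 CPM against 575, 454, 829 and 1150 CPM (-4.62 ± 0.43). Rgcc, Timp4, Btnl9, Rbp7, Slc28a2, Coro2b, Slc26a10 and Lrrc3b made up the rest of the 10 lowest among the named genes. Fabp4, a carrier of fatty acids, was lower by a smaller margin (-1.66 ± 0.36) and was found in 94.9% of vECs. Of 16 arterial genes 8 were lower, among them Hey1, Dll4, Gja4 and Efnb2, and 1, Tm4sf1, was higher (median -0.87).

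Of 20 immediate early and dissociation genes 12 were lower in vECs and 0 higher (median -1.29). Fos was at 1520, 671, 1020 and 902 CPM in vECs and at 2030 to 3200 CPM in capillary cells (-1.36 ± 0.41), and Hspa1a was at 51.3, 140, 320 and 70.8 CPM against 973 to 2490 CPM (-3.78 ± 0.48). Of 16 genes of BMP and TGF-beta signalling 5 were lower, Smad6, Id1, Id3, Tgfb1 and Tgfb2, 0 were higher and 11 did not pass (median -0.44). Id1, a direct target of BMP receptors, was at 160, 0, 141 and 180 CPM in vECs and at 734 to 1150 CPM in capillary cells (-3.07 ± 0.41). The remaining lists were mixed, where 10.6% of all 5240 genes tested were higher and 9.96% lower. Of 20 interferon-stimulated genes 3 were lower, of 10 junction genes 1 was higher and 1 lower, of 15 matrix genes 4 were higher (Col15a1, Bgn, Tgfbi and Eln) and 3 lower, and of 10 VEGF, angiopoietin and Notch receptor genes 1 was higher, Nrp2, and 4 lower.

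**Figure D3:**
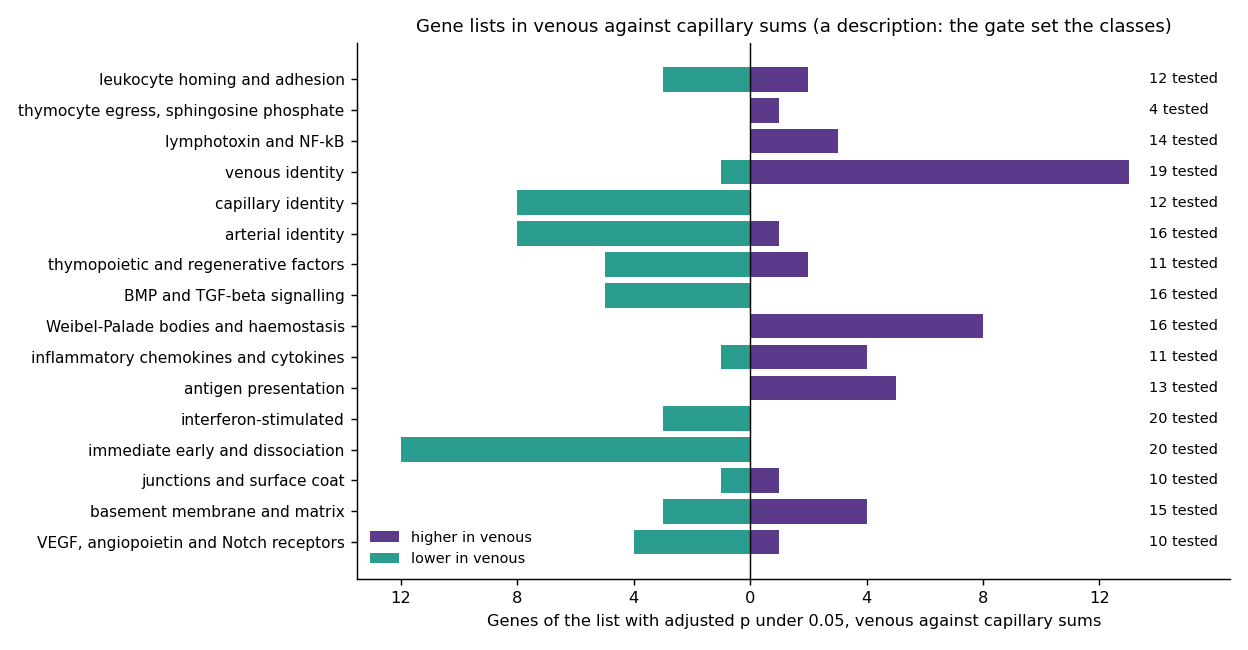
For each gene list, bars to the right count the genes with a higher level in vECs and bars to the left those with a lower level, at an adjusted p under 0.05 against capillary sums, with the number tested at the right. The venous list leads on the right (13) and the immediate early list on the left (12); the classes were cut from the same cells, so the counts are descriptive.

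Against arterial cells 548 of 5240 genes stood higher and 365 lower in vECs (10.5% and 6.97%, 17.4% in all, by the same edgeR test), with WT arterial sums of only 1 and 2 cells. Sele, F5, Fgf23, Hrh1, Tgfbi and Sh2b2 had 0 UMIs in the arterial sums of all 4 libraries. Vcam1 did not pass against arterial cells, at 2370, 488, 809 and 916 CPM in arterial sums (0.25 ± 0.41), and Vwf was found there at 0, 88.8, 95.2 and 243 CPM. Lower in vECs were the phosphatase gene Alpl (-7.33 ± 0.55), Lrrc3b (-6.36 ± 0.86), Nebl (-5.96 ± 0.52), St8sia6 (-5.58 ± 0.53), Prom1 (-5.41 ± 0.57) and Igf2 (-5.28 ± 0.53). Of the 16 arterial genes 11 were lower.

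vECs also varied among themselves. With each cell thinned to 2000 UMIs (193 cells), 107 held Ackr1 and 86 did not, and the share that held a second gene was compared between them as a description, with genes picked after their values were seen. Csf3 was found in 63.6% of the cells with Ackr1 and in 22.1% of those without. Fgf23 was in 21.5% and 2.33%, and Sele in 77.6% and 50.0%. The order was the same within the larger libraries: for Csf3 it was 65.2% and 22.2% in Z/Z 1, 67.3% and 27.0% in Z/Z 2 and 37.5% and 9.09% in WT 1, the last over 8 and 11 cells. Most other genes compared were also commoner in the cells with Ackr1, such as Mctp1 (85.0% and 67.4%), Pcdh7 (54.2% and 43.0%) and F5 (41.1% and 34.9%). Only Slco2a1 went the other way (31.8% and 33.7%). Bmp4 was found in 24.3% of the cells with Ackr1 and 18.6% of those without. The 42 cells with Bmp4 held Pcdh7 in 71.4%, against 43.0% of the 151 without Bmp4. F5 was in 54.8% and 33.8% of the same cells, and Csf3 in 38.1% and 47.0%. Genes of 1 cell share its depth and its library, and the rule itself used Ackr1.

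**Figure D4:**
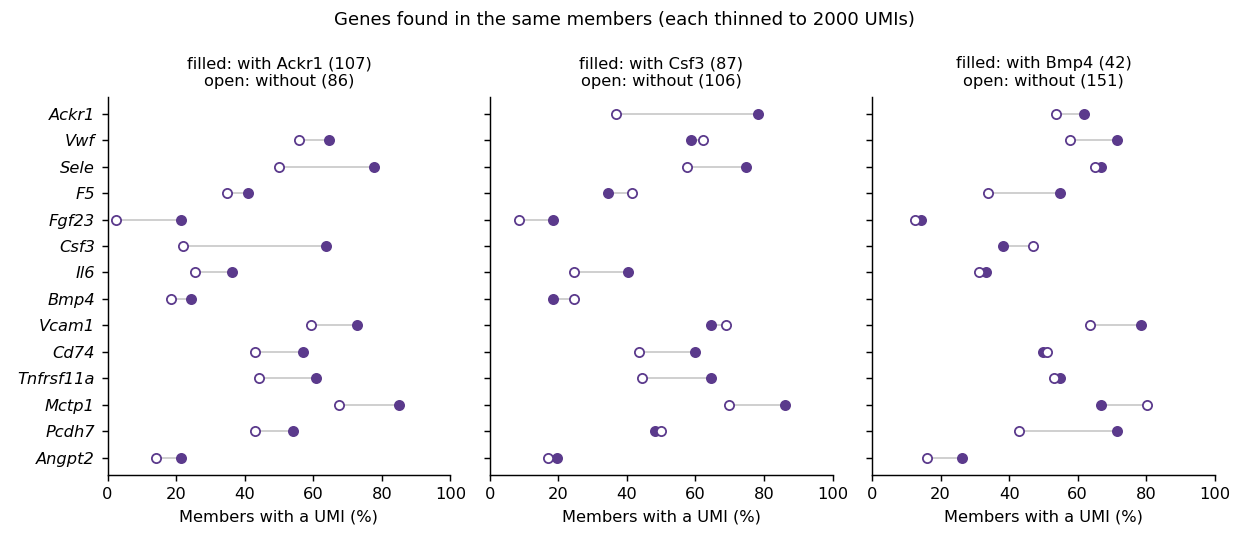
Share of thinned vECs with a UMI of each gene on the y axis, among cells with (filled) and without (open) Ackr1, Csf3 or Bmp4. The gap is widest for Csf3 beside Ackr1 (63.6% and 22.1%); beside Bmp4 it is widest for Pcdh7 (71.4% and 43.0%).

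Between genotypes few genes of the vECs differed past the threshold. Of 6430 genes tested in the venous sums, 3 rose (0.0467%) and 1 fell (0.0156%) in Z/Z, or 0.0622% in all (edgeR quasi-likelihood test, adjusted p under 0.05), while 583 had an unadjusted p under 0.05 (9.07%), and DESeq2 called the 3 that rose. Slco2a1, the prostaglandin transporter, rose from 17.1 and 0 CPM in WT to 551 and 512 CPM in Z/Z, a log2 change of 5.24 ± 0.71 (adjusted p = 0.00657). WT vECs held 3 UMIs of it in 23 cells and Z/Z vECs 878 in 172 cells, a ratio of 35.2 with a 95% interval of 12.0 to 171 for counting error only. The WT level lies below that of empty droplets of the same libraries (88.9 and 89.8 CPM), whereas the Z/Z level before TMM scaling (419 and 389 CPM) lies above them (117 and 89.6 CPM). Slco2a1 is on the list of venous genes, where it was the 1 of 20 genes tested that changed.

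Mgp, the matrix Gla protein that inhibits calcification and BMP signals, rose from 22.8 and 0 CPM to 365 and 596 CPM (4.69 ± 0.71, adjusted p = 0.0158). Before TMM scaling vECs held 17.6 and 0 CPM of Mgp in WT and 278 and 453 CPM in Z/Z. Empty droplets, which are unscaled, held more in each library, with 218 and 191 CPM in WT and 536 and 602 CPM in Z/Z. The scaled arterial sums held 552, 44.4, 3270 and 4490 CPM. Mt1, the metal-binding metallothionein 1, rose from 28.5 and 27.9 CPM to 958 and 589 CPM (4.76 ± 0.65, adjusted p = 0.00657, edgeR). Before TMM scaling its levels in vECs were 22.1 and 28.8 CPM for WT and 728 and 447 CPM for Z/Z. Unscaled empty droplets held more in each library, with 712 and 566 CPM in WT and 4760 and 5720 CPM in Z/Z. In Epcam+ cells, before TMM scaling, Mt1 was at 843 and 879 CPM for WT against 2680 and 3050 CPM for Z/Z. When 5% of each sum was subtracted in the proportions of empty droplets, Mgp and Slco2a1 still passed, while Mt1 (adjusted p = 0.0723) and Vcl (adjusted p = 0.0827) did not. Vcl, which codes for vinculin of focal adhesions, fell from 2120 and 3860 CPM to 481 and 429 CPM (-2.69 ± 0.46, adjusted p = 0.0414). It did not pass in 9 of 15 alternatives, among them DESeq2 (adjusted p = 0.0853) and shared barcodes left out (-1.83, adjusted p = 0.605). The WT sums rest on few cells: 2 of 20 vECs held 55.3% of the Vcl UMIs of WT 1, and 1 of 3 held 77.5% of those of WT 2. The median was 3.5 UMIs per vEC in WT 1 and 3 in each Z/Z library, and 21 of 23 WT vECs and 140 of 172 Z/Z vECs held a UMI. For these 4 genes the sums of the WT and Z/Z libraries did not overlap. In capillary cells Slco2a1 (2.78, adjusted p = 0.0122) and Mt1 (1.94, adjusted p = 0.00243) rose as well and Vcl fell (-1.12, adjusted p = 0.0305), and Mgp did not pass (0.52, adjusted p = 0.314), by the same edgeR test, which called 2.26% of 9776 genes there.

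**Figure D5:**
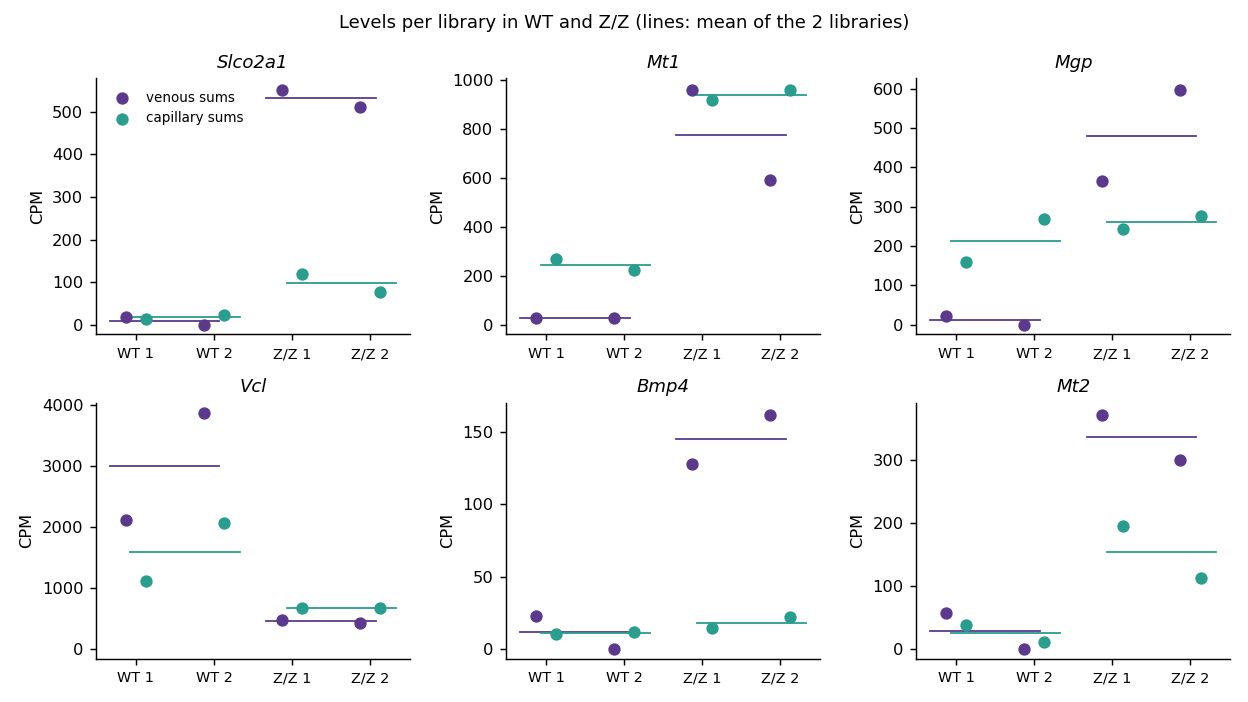
Level in CPM of 6 genes in the summed vECs (purple) and capillary cells (green) of each library, with lines at the mean of the 2 libraries of a group. Slco2a1, Mt1 and Mgp are higher and Vcl is lower in both Z/Z venous sums than in either WT sum; Bmp4 and Mt2 lie the same way without passing the test.

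These calls rest on 23 WT cells. Without WT 2, which holds 3 vECs, 319 genes passed, and without WT 1 there were 634, in edgeR fits where the lone WT library was assumed to vary like those of Z/Z. Without Z/Z 1 the count was 0 and without Z/Z 2 it was 2, and with cells thinned to 2000 UMIs it was 0. The mitochondrial share and the red blood cell and pericyte lists given above moved with genotype too, and their part in these differences was not tested.

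Among the genes of interest for venous function, none passed besides Slco2a1 and Mgp. Bmp4 stood at 22.8 and 0 CPM for WT against 128 and 162 CPM for Z/Z (2.96 ± 0.72, adjusted p = 0.326, edgeR), and 4 of 23 WT vECs and 87 of 172 Z/Z vECs held a UMI of it. It passed when either WT library was left out (adjusted p = 0.00071 without WT 2 and 0.0185 without WT 1, where the remaining WT library held 0 UMIs). Mt2 was at 57.0 and 0 CPM against 373 and 300 CPM (2.91 ± 0.60, adjusted p = 0.270). Vcam1 (0.18 ± 0.42), Icam1 (0.18 ± 0.63), Kitl (-0.05 ± 0.42), Ltbr (0.74 ± 0.72), Spns2 (-0.36 ± 0.52), Plpp3 (0.24 ± 0.54) and Nr2f2 (1.28 ± 0.59) did not pass. Selp was at 8950, 2510, 9370 and 10000 CPM, Ackr1 at 1130, 224, 1010 and 1400 CPM and Vwf at 610, 307, 678 and 810 CPM, where WT 2 is low for all 3 markers, and these were not tested because they chose the cells. The lists on arterial and venous identity each had 1 gene that rose, Mgp and Slco2a1, and no gene of the other 14 lists passed. Of 20 interferon-stimulated genes 18 had a positive change (median 0.90), where 56.5% of all genes did (median 0.11).

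For some genes the genotype difference itself differed between vECs and capillary cells. The interaction was tested on 6940 genes, of which 22 were higher (0.317%) and 9 lower (0.130%) in vECs (0.447% in all, edgeR, adjusted p under 0.05). DESeq2 called 0 of them, with 272 at an unadjusted p under 0.05 against 516 (7.44%) by edgeR, and the edgeR count was also 0 without Z/Z 1, without Z/Z 2 and without cells of shared barcodes. Vcam1 was at 1400 and 866 CPM in WT vECs and 1270 and 1340 CPM in Z/Z vECs, but fell in capillary cells from 271 and 431 to 88.0 and 86.7 CPM (-1.82, adjusted p = 0.00317), a difference of effects of 2.13 ± 0.52 (adjusted p = 0.0181). Tll1, a protease that processes matrix and BMP regulators, likewise fell in capillary cells from 158 and 163 CPM to 22.1 and 50.5 CPM and stood at 1140, 531, 1370 and 1620 CPM in vECs (3.03 ± 0.56, adjusted p = 0.000105). For Mgp the difference of effects was 4.13 ± 0.73 (adjusted p = 5.07e-05). Il6 stood at 371 and 0 CPM in WT vECs and 656 and 411 CPM in Z/Z vECs, beside 382 and 163 CPM and 105 and 143 CPM in capillary cells (2.46 ± 0.48, adjusted p = 0.000486). In the other direction Angpt2, the stored antagonist of the TIE2 receptor, was at 656 and 112 CPM in WT vECs. Z/Z vECs held 194 and 166 CPM, so the groups overlap, and capillary cells held 25.1, 0, 58.4 and 32.5 CPM. The difference of effects was -2.72 ± 0.62 (edgeR, adjusted p = 0.00732). In WT 1, 2 of 20 vECs held 54.8% of the Angpt2 UMIs, and all 4 UMIs of WT 2 lay in 1 of its 3 vECs.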

How the data were processed

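Libraries were made with 10x Genomics droplet chemistry from CD45- thymic stroma. The labels name the v2 kit and the methods a v3 chip. The deposited matrices hold UMI counts per gene and barcode, made by the authors with Cell Ranger (7.01 in the submitters' processing notes, 7.0.1 in the matrix header) on mm10 (GRCm38); they are not normalized. The study tested cells with a rank-sum test in scanpy, whereas here the UMIs of the cells of a class were summed per library, so that the library is the replicate. Members and gene lists were chosen with earlier results of these data known.

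Sums were tested with edgeR 4.0.16 (TMM factors, filterByExpr, quasi-likelihood test, Benjamini-Hochberg adjustment at 0.05) in R 4.3.3, with DESeq2 1.42.0 as an alternative. The library was a block between classes. Of 32285 features, 101 ribosomal and haemoglobin features and the 16 genes of the gate were left out of tests. Cells were thinned to 2000 UMIs for shares of cells. Permutation tests were exact (scipy 1.17.1). Named genes were up to 10 each way with the largest log2 difference among those past the threshold (6 each way for arterial cells and the interaction). Each had a mean of at least 50 CPM in the higher group or class. Between genotypes the groups could not overlap, and between classes the order had to hold in every library. For the interaction the log2 differences between vECs and capillary cells could not overlap between genotypes, though levels in vECs could. Also named were Bmp4, Vcam1, Icam1, Selp, Ackr1, Vwf, Nr2f2, Kitl, Ltbr, Spns2, Plpp3 and Ccl19 whatever their values, and members of a list that passed. Names of mitochondrial, predicted and other-cell marker genes were left out.

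On simulated counts for the venous comparison of genotypes (6401 genes) 75.8% of genes changed by a log2 of 2 and 98% of those changed by 3 were found. For the interaction (6466 genes) the shares were 49% and 83%. These counts were drawn from the mean levels of the venous sums and the real totals, with the same set spread for every gene. Only genes above a minimum level were changed. Whether that spread matches the real sums, where WT 2 rests on 3 vECs, was not tested. The shares are therefore no measure of power in these data. Alternatives were another tool, no filter, other gates, thinning, subtraction of empty-droplet RNA, leaving out doublet-like cells, shared barcodes or 1 library, and the replicate number as a block.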

Additional observations from a re-analysis of the deposited data

Results flagged for a closer look

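For 14 flagged genes, of the 31 called, the Z/Z effect differed between vECs and capillary cells by the interaction test. The test was edgeR at an adjusted p under 0.05, on the log2 scale, with 2 libraries per group. Il6, described above, was called too and is not among the 14. DESeq2 called none of the 6940 genes tested, and 272 had an unadjusted p under 0.05 by it. The difference was positive for Ch25h (4.38), Arid1a (4.24), Mgp (4.13), Syt1 (3.72), Rapgef4 (3.17), Tll1 (3.03), Mt1 (2.91) and Vcam1 (2.13). It was negative for Inhbb (-3.51), Angpt2 (-2.72), Fam189a2 (-2.37), Depp1 (-2.27), Fez2 (-1.97) and Tmcc3 (-1.93).

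Ch25h, which makes 25-hydroxycholesterol, was at 17.1 and 27.9 CPM in WT vECs and 191 and 87.5 CPM in Z/Z vECs, beside 22.6, 69.9, 14.4 and 7.81 CPM in capillary cells. Syt1, a calcium sensor of vesicle release, was at 45.6, 112, 96.5 and 32.4 CPM in vECs and at 116, 93.2, 5.81 and 13.6 CPM in capillary cells. Inhbb, an activin and inhibin subunit, was at 194, 112, 48.9 and 64.8 CPM in vECs and at 12.6, 0, 38.5 and 37.0 CPM in capillary cells. Arid1a and Rapgef4 had 0 CPM in the vECs of WT 2 and 5.70 and 45.6 CPM in those of WT 1. The WT vECs held 1 UMI of Arid1a, 4 of Ch25h and 8 of Rapgef4, so the values of all 3 genes rest on few WT UMIs.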

How the results depend on the processing

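The genotype comparison in vECs (4 genes) gave 0 genes with thinned cells and with no filter on low counts, 2 after subtraction of 5% empty-droplet RNA, and 0 to 634 with 1 library left out. The interaction (31 genes) gave 5 with thinned cells, 0 without shared barcodes, 0 with DESeq2, 18 with no filter and 0 to 377 with 1 library left out. Against capillary cells (1076 genes) the count was 443 with thinned cells, 692 with no library block and 411 to 1552 with 1 library left out. Against arterial cells (913 genes) it was 319 with thinned cells and 395 to 1238 with 1 library left out. The difference in the share of vECs kept its sign, at -8.03 to -1.05 percentage points. Icam1 in vECs against capillary cells turned from -0.56 to 0.03 without WT 2 (-0.92 to 0.03 over the libraries left out). The cause of these moves was not tested, beyond there being fewer cells, UMIs or libraries where some were left out.

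The deviations of same-numbered libraries from their group means had r = -0.142 over 2668 genes. With 2 libraries per group the deviations mirror each other, so this value cannot decide whether the numbers pair the libraries. The numbers were not taken as pairs. The genotype comparison called 5 genes with the replicate block and 4 with the crossed replicate block, which was added after seeing the data. Of the values of named genes, 65 of 90 for the genotype comparison, 312 of 318 against capillary cells and 95 of 176 for the interaction kept their direction and their side of the threshold. Depth limits WT most, with 3 vECs and 34734 UMIs in WT 2.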
